A study of Mus musculus with 6 samples.

Results

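The genes described here are 31 markers of macrophages and granulocytes, 16 of macrophages and 15 of granulocytes, measured in mouse T cell leukemias with and without the adaptor gene Sh2b3. They were taken by name, as every probe set whose annotated symbol is on the list, and where a gene had several, the most intense on average was read. Of the 31 genes, 29 had a probe set, out of 18194 genes named on the array. Retnlg, a resistin-like secreted protein, and Cebpe, a transcription factor of late granulocyte maturation, had none under their symbols and were not analysed here. All 16 macrophage genes and 12 of the 13 measured granulocyte genes passed the filter on low values described with the processing, and 12565 genes were tested in all.

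Both groups were leukemias driven by ΔE-Notch1, an activated form of NOTCH1 lacking the extracellular part, which a MigR1 retrovirus carried into lineage-depleted marrow progenitors. The donors were 8-week-old mice, C57BL6 (Sh2b3 wild type) in 1 group and Sh2b3-/- in the other, and the infected Lin-Sca1+ cells were injected into irradiated C57BL6 recipients. There were 3 arrays per genotype, each labelled a biological replicate. RNA came from the tumours, and no sort for leukemic cells is given in the sources used here, so that blood and marrow cells of the recipient, or other offspring of the infected progenitors, can be in the RNA. In the knockout group only donor cells lacked Sh2b3, since the recipients were C57BL6. In the figures WT1 to WT3 and KO1 to KO3 stand for wild-type and knockout arrays 1 to 3.

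Macrophages are phagocytes that depend on the growth factor receptor encoded by Csf1r, recognise antibody-coated and dying cells through Fc and scavenger receptors, and are a main source of the complement protein C1q. Granulocytes, chiefly neutrophils, build their granules in order: the primary granule proteins myeloperoxidase, elastase, proteinase 3 and cathepsin G are transcribed in promyelocytes, and lactoferrin, cathelicidin and the gelatinases later, so that transcripts of the first set mark immature cells. Neither set is part of the usual T cell programme. T lineage markers were read in the same arrays, and of 10 measured 9 averaged above 4. The most intense were Cd3d at 12.13 to 12.63, Cd3g at 11.82 to 12.35 and Thy1, a surface marker of T cells, at 12.06 to 12.88. Cd4 was low, from 4.63 on wild-type array 1 to 2.23 on knockout array 3. All values are deposited log2 signals, on which 1 unit is a doubling, and low signals lie close together at about 2. In RNA from whole tumours, fewer cells of a type and less RNA per cell cannot be told apart, nor can recipient and donor myeloid cells.

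The Sh2b3 transcript checked the labels, at 4.25, 4.83 and 4.08 on wild-type arrays 1, 2 and 3 and 2.29, 2.24 and 2.29 on the knockout arrays (log2 fold change -2.11, standard error 0.247, adjusted p = 0.157 by limma). Wild-type arrays 1 and 2 nearly coincided. Across the 6725 genes averaging more than 5, their differences had an SD of 0.234, and the remaining 14 pairs of arrays gave 0.503 to 0.689. Nothing in the labels says that they share an animal, and results that rest on them are also given with the pair averaged into 1 sample. Since no array is tied to an animal by the labels, p-values here reflect array-to-array spread, part of which can be technical.

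No macrophage or granulocyte gene passed the threshold between genotypes, a threshold that the deleted Sh2b3 itself did not pass. By limma, 0 of the 28 tested members had an adjusted p under 0.05, as did 0 of the 12565 genes (0%). At an unadjusted p under 0.05 there was 1 member, S100a9, against 982 genes (7.82%). Adjusted p for the members lay between 0.638 and 0.996. Many members showed a large spread between arrays of the same genotype, described below by role. S100a9 and Lcn2 were the 2 members whose difference between genotypes was larger than the range of either group.

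Of the 6 surface receptors of macrophages, 4 were lowest on wild-type array 3. Csf1r, the receptor for the macrophage growth factor CSF1, read 8.55, 8.92 and 7.14 on the wild-type arrays and 9.20, 8.34 and 8.31 on the knockout arrays. Cd163, the scavenger receptor for haptoglobin-bound hemoglobin, read 4.64, 5.09 and 2.28 in wild type and 4.35, 3.49 and 3.21 in knockout. Vcam1, an adhesion molecule of marrow and spleen macrophages that stromal and endothelial cells also make, read 9.95, 10.35 and 9.23, then 10.43, 9.41 and 9.87. For these 3 genes the lowest of the 6 values was that of wild-type array 3, and the groups overlapped. Their log2 fold changes, knockout minus wild type, were 0.41 (standard error 0.453), -0.32 (0.692) and 0.06 (0.328). Adgre1, which encodes the macrophage antigen F4/80, did not share that low array, with wild-type values of 3.83, 3.68 and 3.78, all below the knockout values of 4.92, 4.17 and 3.95 (log2 fold change 0.58, standard error 0.303, adjusted p = 0.669 by limma). Without knockout replicate 1 the value for Adgre1 was 0.30. Itgam, the integrin chain CD11b, and Cd14, the lipopolysaccharide co-receptor, lay at the bottom of the scale, between 1.90 and 2.56 and between 1.96 and 2.89, where signals cannot be told from background.

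Fcgr3, Fcer1g and Tyrobp are described together, as an Fc receptor gene and adaptor genes. Fcgr3 encodes an activating receptor for immunoglobulin G. Fcer1g and Tyrobp encode small adaptors that carry the activating motif of that receptor or of related receptors. Fcgr3 read 6.09, 6.36 and 3.92 in wild type and 7.04, 5.64 and 5.52 in knockout, a range of 3.12 over the 6 arrays and the widest of the 29 genes. Fcer1g, which natural killer cells also use, read 6.34, 6.50 and 5.72, then 7.25, 6.82 and 6.34. Tyrobp read 6.82, 6.56 and 6.28, then 8.09, 7.0 and 5.85. All 3 were highest on knockout array 1. Their log2 fold changes were 0.61 (standard error 0.677), 0.62 (0.313) and 0.43 (0.501), with adjusted p between 0.666 and 0.836 by limma. Without wild-type replicate 3 the value for Fcgr3 was -0.16 and that for Fcer1g 0.38, and without knockout replicate 1 that for Fcer1g was 0.39 and that for Tyrobp -0.13.

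The 3 chains of complement C1q, the recognition molecule of the classical pathway, varied together. C1qa read 7.77, 8.00 and 6.24 in wild type and 8.46, 6.68 and 6.06 in knockout, C1qb 8.13, 8.71 and 7.26, then 9.06, 7.85 and 7.87, and C1qc 4.85, 4.93 and 3.74, then 5.41, 4.18 and 4.04. Each chain was highest on knockout array 1, and on each of them wild-type array 3 was below the other wild-type arrays. Averaged over the 3 chains, wild type gave 6.63 ± 0.78 and knockout 6.62 ± 0.89 (SD, n = 3). The genes are consecutive among protein-coding genes on chromosome 4 in the GRCm38.p6 gene table, with none between C1qa and C1qc or between C1qc and C1qb.

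C1qb, C1qc and Cd163 were picked as examples of macrophage genes that spread between arrays. The 250 bases upstream of their annotated starts are given, from RefSeq on GRCm38.p6, 5′ to 3′ on the gene's strand. Fcgr3, the most widely spread member, also had a window and is not printed. Of the 31 members, 23 had such a window. Capitals mark matches, on either strand, to 3 motifs of myeloid transcription factors: GAGGAA, the core of PU.1 sites, TTNNGNAA, a loose form of C/EBP sites, and TGTGGT, of RUNX sites. No match of 1 motif overlapped a match of another in the windows printed here. C1qb lies at chr4:136886201-136886450, C1qc at chr4:136892915-136893164, both on the minus strand, and Cd163 at chr6:124304401-124304650 on the plus strand.
C1qb: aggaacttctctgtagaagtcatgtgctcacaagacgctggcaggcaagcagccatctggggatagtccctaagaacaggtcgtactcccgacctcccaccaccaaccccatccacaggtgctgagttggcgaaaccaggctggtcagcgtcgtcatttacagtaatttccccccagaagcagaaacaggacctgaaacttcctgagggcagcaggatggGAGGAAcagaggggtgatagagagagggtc
C1qc: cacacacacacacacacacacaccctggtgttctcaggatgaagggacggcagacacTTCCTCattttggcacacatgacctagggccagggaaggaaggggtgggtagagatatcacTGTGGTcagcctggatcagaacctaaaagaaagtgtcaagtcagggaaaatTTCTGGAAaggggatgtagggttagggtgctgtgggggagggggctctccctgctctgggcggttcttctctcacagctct
Cd163: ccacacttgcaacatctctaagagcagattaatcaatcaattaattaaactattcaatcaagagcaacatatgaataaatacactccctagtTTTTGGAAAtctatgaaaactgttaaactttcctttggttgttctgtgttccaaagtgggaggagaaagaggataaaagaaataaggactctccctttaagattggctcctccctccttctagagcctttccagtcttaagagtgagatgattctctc
The C1qb window held 1 match, to GAGGAA, ending 25 bases before the start. C1qc held 1 match to each motif, and Cd163 held 2 matches to TTNNGNAA that overlap each other and none to the PU.1 core. Among macrophage genes, GAGGAA was in 6 of the 10 with a window (60%) and TTNNGNAA also in 6, against 23.3% and 36.8% of all 32851 windows of this length; TGTGGT was in 2 (20%), against 14%. A match is only a run of letters and does not show that a factor binds.

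Genes of the lysosome and of microbial killing spread less among the wild-type arrays. Lyz2, the lysozyme of myeloid cells, read 7.71, 7.82 and 7.75 in wild type and 8.5, 7.99 and 7.83 in knockout, so that the groups did not overlap (log2 fold change 0.35, standard error 0.204, adjusted p = 0.690 by limma). Without knockout replicate 1 the value for Lyz2 was 0.15. Its close relative Lyz1 read 9.14 to 9.28 and 9.24 to 9.65, and probes of these near-identical genes can share signal. Ctss, the cathepsin that trims the invariant chain of MHC class II and is also made by B and dendritic cells, read 8.46, 8.89 and 8.56, then 9.75, 8.98 and 8.34. Mpeg1, which encodes the pore-forming protein perforin-2, read 7.17, 7.49 and 7.10, then 8.07, 7.60 and 7.16. Cd68, a lysosomal membrane glycoprotein, read 3.57, 3.97 and 3.52, then 4.06, 3.03 and 2.67. Here too knockout array 1 gave the highest value of each gene, and wild-type array 3 was close to wild-type array 1, as it was for Adgre1 but not for the other surface receptor genes. The log2 fold changes of Ctss, Mpeg1 and Cd68 were 0.39, 0.36 and -0.43, each with a 95% interval that includes 0. They rested on single knockout arrays: without knockout replicate 1 they were 0.023, 0.13 and -0.84, and without knockout replicate 3 they were 0.73, 0.58 and -0.14.

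**Figure D1:**
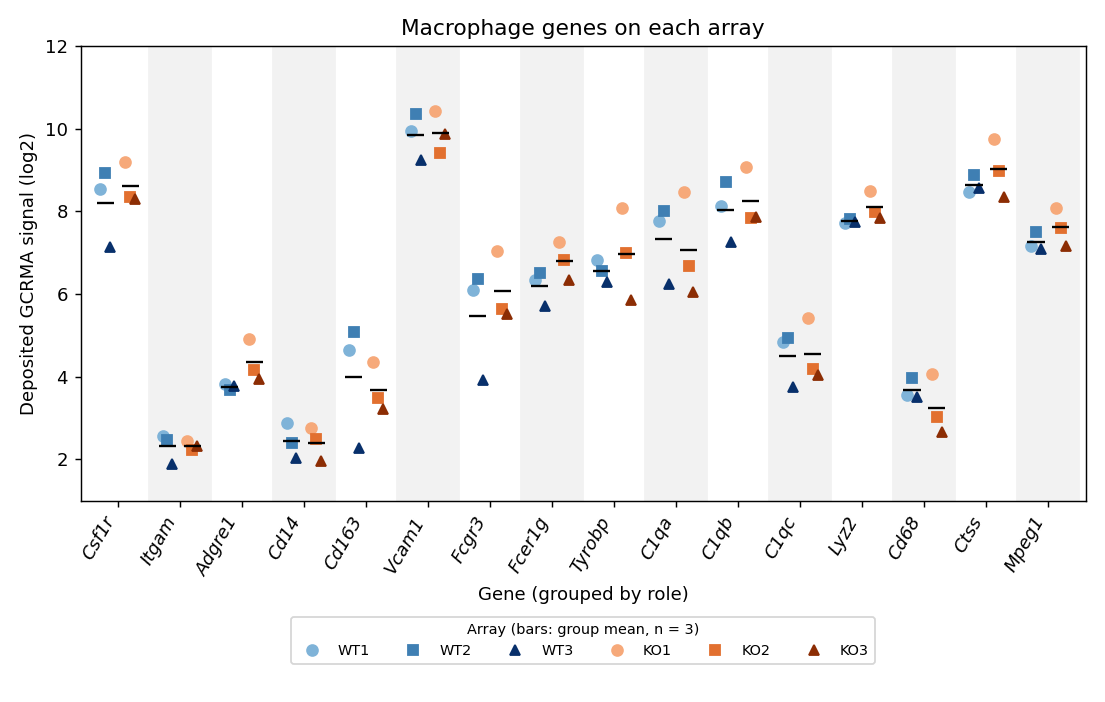
Deposited log2 signal of the 16 macrophage genes on the 3 wild-type arrays (blue) and the 3 knockout arrays (orange), with bars at the group means and genes in the order of their roles. Knockout array 1 is the highest point for 13 genes and wild-type array 3 the lowest for 9, while the group means stay close together.

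Counted over the 16 macrophage genes, knockout array 1 gave the highest value for 13 and wild-type array 3 the lowest for 9; among all genes tested the shares were 18.5% and 17.1%. Knockout array 3 was lowest for a further 5 (22.6% of all genes). Every macrophage gene read higher on knockout array 1 than on knockout array 2, on knockout array 3 and on wild-type array 3. These genes are not independent of each other, and no test is given for the counts. The mean over the 16 genes was 6.21, 6.38 and 5.4 on the wild-type arrays and 6.86, 5.99 and 5.71 on the knockout arrays. Arrays of the same genotype lay further apart than the genotypes did: the genotype means of 6.0 ± 0.52 and 6.19 ± 0.60 (SD, n = 3) lay 0.19 apart. Wild-type arrays 1 and 2 differed from each other by a median of 0.30 over these genes and by at most 0.58.

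Further probe sets of 3 macrophage genes gave the same order of arrays in part. The less intense probe sets of Csf1r read 5.53, 5.71 and 4.74 in wild type and 6.10, 5.35 and 5.28 in knockout, and 4.75, 4.70 and 4.12, then 4.82, 4.11 and 3.92; both were highest on knockout array 1. Knockout minus wild type was 0.25 and -0.24 for them, against 0.41 for the most intense one. For C1qb the 3 probe sets gave 0.23, 0.43 and -0.45, the last with its lowest reading, 4.61, on knockout array 3. For Vcam1 they gave 0.06, -0.33 and 0.11. The sign of the genotype difference therefore depended on the probe set for all 3 genes.

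Among granulocyte genes the primary granule enzymes varied most. Mpo, which encodes myeloperoxidase, read 5.99, 5.84 and 3.27 in wild type and 3.40, 3.56 and 4.95 in knockout. Ctsg, cathepsin G, read 3.93, 4.01 and 2.16, then 2.65, 2.38 and 2.77, and Prtn3, proteinase 3, read 4.74, 4.44 and 3.14, then 3.85, 3.34 and 4.46. In all 3 genes wild-type arrays 1 and 2 were high and wild-type array 3 was the lowest of the 6. Knockout array 3 was the highest of the knockout arrays. For Ctsg, wild-type array 3 and the knockout arrays read only 2.16 to 2.77, near the bottom of the scale, where such small gaps cannot be ranked. Elane, neutrophil elastase, which lies beside Prtn3 on chromosome 10, read 2.06 to 2.52 on the 6 arrays, at the bottom of the scale. The log2 fold changes were -1.06 for Mpo (standard error 0.747, adjusted p = 0.725 by limma), -0.77 for Ctsg (0.463, 0.693), -0.22 for Prtn3 (0.468, 0.916) and -0.0033 for Elane. Mpo was the 1 member with a difference of means over 1, and its wild-type values alone spanned 2.72. The close wild-type pair held the high values. With that pair averaged the log2 fold change was -0.62 for Mpo and -0.465 for Ctsg, and for Prtn3 it reversed to 0.018. Leaving out wild-type replicate 3 gave -1.95 for Mpo and -1.37 for Ctsg. For Ctsg the adjusted p by limma was then 0.0770, the lowest of any member under any alternative. That fit took its wild-type spread from the close pair alone, which may not be independent. With the pair averaged, the adjusted p of Ctsg was 0.942 by limma.

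The upstream windows of these 3 variable genes are printed with the same motifs in capitals. Mpo lies at chr11:87793534-87793783 and Prtn3 at chr10:79879417-79879666, on the plus strand, and Ctsg at chr14:56102575-56102824 on the minus strand. S100a9, at chr3:90695722-90695971 on the minus strand, is added because it was the member with the smallest p.
Mpo: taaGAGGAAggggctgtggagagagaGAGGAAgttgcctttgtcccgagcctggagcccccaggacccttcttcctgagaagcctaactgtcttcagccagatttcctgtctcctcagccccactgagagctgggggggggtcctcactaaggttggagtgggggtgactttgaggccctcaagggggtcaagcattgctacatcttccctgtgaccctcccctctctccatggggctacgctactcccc
Ctsg: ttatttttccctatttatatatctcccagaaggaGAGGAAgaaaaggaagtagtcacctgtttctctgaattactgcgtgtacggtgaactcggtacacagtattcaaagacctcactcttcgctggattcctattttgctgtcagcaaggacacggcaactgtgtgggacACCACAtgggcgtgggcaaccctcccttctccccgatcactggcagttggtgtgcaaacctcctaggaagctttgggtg
Prtn3: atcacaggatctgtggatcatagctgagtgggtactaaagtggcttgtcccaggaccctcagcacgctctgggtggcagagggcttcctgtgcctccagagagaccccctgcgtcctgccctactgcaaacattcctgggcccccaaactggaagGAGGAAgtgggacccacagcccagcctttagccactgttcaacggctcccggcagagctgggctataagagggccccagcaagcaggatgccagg
S100a9: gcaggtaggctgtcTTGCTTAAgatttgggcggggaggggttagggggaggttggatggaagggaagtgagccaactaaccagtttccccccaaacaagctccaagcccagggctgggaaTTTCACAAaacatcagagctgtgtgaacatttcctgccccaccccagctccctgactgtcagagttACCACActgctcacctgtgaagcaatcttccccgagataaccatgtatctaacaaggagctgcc
GAGGAA occurred in all 3 variable genes, with 2 matches in Mpo, and Ctsg also held 1 match to TGTGGT. There was no match to GAGGAA in the window of S100a9, which held 2 matches to TTNNGNAA and 1 to TGTGGT. Among the steadier genes, S100a8 held 2 matches to GAGGAA and Lcn2 held 1, while Ngp and Camp held none. The variable Chil3 also held none. Whether the motif goes with the spread was not tested. Of the 13 granulocyte genes with a window, 8 held GAGGAA (61.5%), 8 TTNNGNAA and 2 TGTGGT (15.4%).

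Genes of later granules spanned less than 1 over the 6 arrays. Camp, the precursor of the antimicrobial peptide cathelicidin, read 8.52, 8.33 and 8.17 in wild type and 8.25, 8.41 and 8.87 in knockout, and Ngp, the neutrophilic granule protein, read 8.25, 8.19 and 8.09, then 7.69, 8.24 and 8.41. Ltf, lactoferrin, read 5.44, 5.12 and 4.93, then 4.83, 5.50 and 5.76, with a log2 fold change of 0.20 that was 0.0017 without knockout replicate 3 and 0.47 without knockout replicate 1. Each of these 3 was highest on knockout array 3. Lcn2, lipocalin 2, which withholds iron from bacteria, stayed between 6.39 and 6.63 on all arrays (log2 fold change -0.13, adjusted p = 0.869 by limma). The collagenase gene Mmp8 read 1.79 to 2.24, below the filter and untested, and the gelatinase gene Mmp9 read 2.70 to 3.0 in wild type and 3.01 to 3.24 in knockout, low on the scale but without overlap (log2 fold change 0.29, adjusted p = 0.707 by limma). A second probe set of Mmp9 read 1.98 to 2.24 with overlapping groups.

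S100a8 and S100a9, neighbours on chromosome 3 that encode the paired calcium-binding proteins of the neutrophil cytosol, were steady. S100a8 read 11.15, 10.97 and 11.03 in wild type and 11.12, 11.30 and 11.11 in knockout. S100a9 read 10.92, 10.87 and 10.70, then 11.15, 11.18 and 10.97. The knockout values of S100a9 all lay above the wild-type values, by a log2 fold change of 0.27 (standard error 0.113, 95% interval 0.010 to 0.53), with an unadjusted p of 0.0435 and an adjusted p of 0.638 by limma. For S100a8 the log2 fold change was 0.13 (standard error 0.107). Chil3, the chitinase-like protein Ym1 of neutrophils and macrophages, behaved unlike these, at 9.37, 9.39 and 7.95 in wild type and 8.34, 8.79 and 9.12 in knockout (log2 fold change -0.15, standard error 0.392). Its lowest value was on wild-type array 3 and its highest knockout value on array 3, as in Mpo, Prtn3 and, at low signal, Ctsg.

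**Figure D2:**
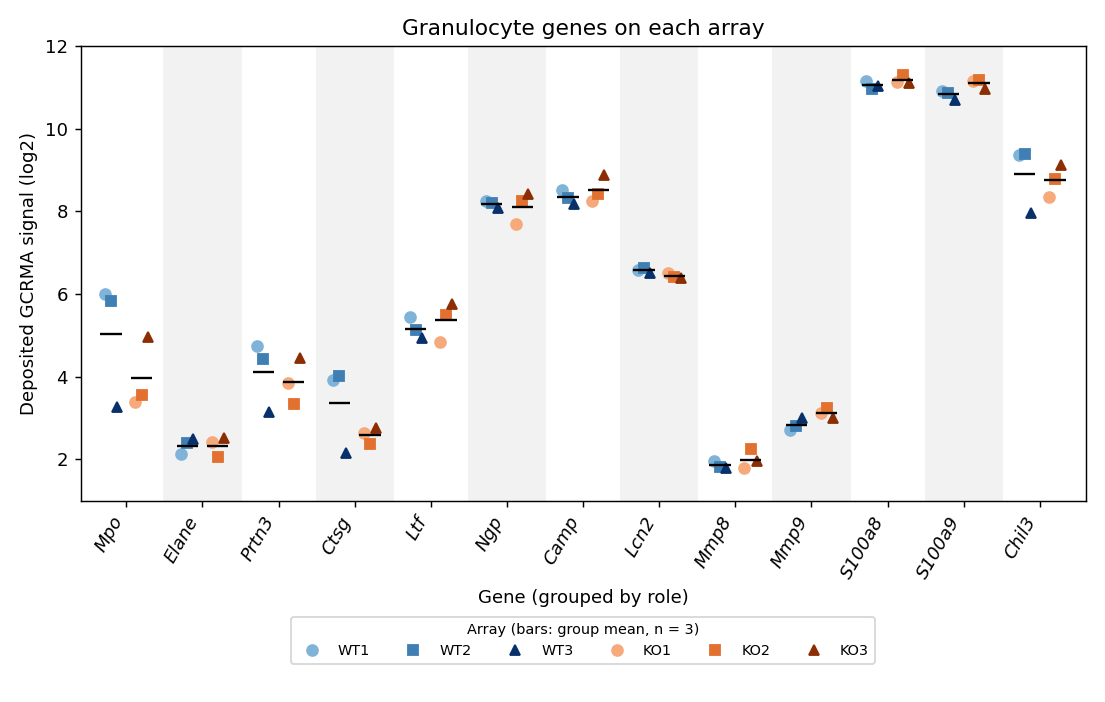
Deposited log2 signal of the 13 measured granulocyte genes on the 3 wild-type arrays (blue) and the 3 knockout arrays (orange), with bars at the group means. Mpo, Prtn3, Ctsg and Chil3 spread widely within wild type, whereas S100a8, S100a9 and Lcn2 each span at most 0.48 over all 6 arrays.

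The granulocyte and macrophage genes shared their order on the wild-type arrays in part and differed on the knockout arrays. Both lists had their lowest mean of all 6 arrays on wild-type array 3. Knockout array 1, the highest for 13 of 16 macrophage genes, was the highest for 0 of the 13 granulocyte genes and the lowest for 3 of them. Wild-type array 3 was the lowest for 6 of the 13, where it was the lowest for 17.1% of all genes. Knockout array 3 was the highest for 4 granulocyte genes and 0 macrophage genes. Of all 12565 genes tested, 2548 were highest on knockout array 3 and 2583 lowest on knockout array 1. Elane is among the 4 and Mmp8 among the 3 lowest on knockout array 1, both at the bottom of the scale. The mean over granulocyte genes was 6.28, 6.22 and 5.63 on the wild-type arrays and 5.78, 5.90 and 6.18 on the knockout arrays, and the primary granule genes alone read 4.20, 4.17 and 2.77, then 3.08, 2.84 and 3.68. The groups' means were 6.04 ± 0.36 and 5.95 ± 0.20 (SD, n = 3).

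Set against the genotypes, 12 of 16 macrophage genes and 6 of 13 granulocyte genes had a higher mean in knockout, where 48.1% of all genes did. The median log2 fold change was 0.29 for macrophage genes, -0.0033 for granulocyte genes and -0.01 over all genes tested. For 14 of 16 macrophage genes and 11 of 13 granulocyte genes the range of the wild-type arrays exceeded the difference between genotypes (75.9% of all genes), and for 16 and 9 the range of the knockout arrays did (84.1%). The groups did not overlap for 4 members, Adgre1, Lyz2, Mmp9 and S100a9, all higher in knockout; over all genes 13.8% did not overlap, and 5.49% had all knockout values above all wild-type values. The 95% intervals were wide for the variable genes, from -0.95 to 2.17 for Fcgr3 and from -2.78 to 0.65 for Mpo, so that large differences in either direction stay within the error of 3 arrays per group.

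**Figure D3:**
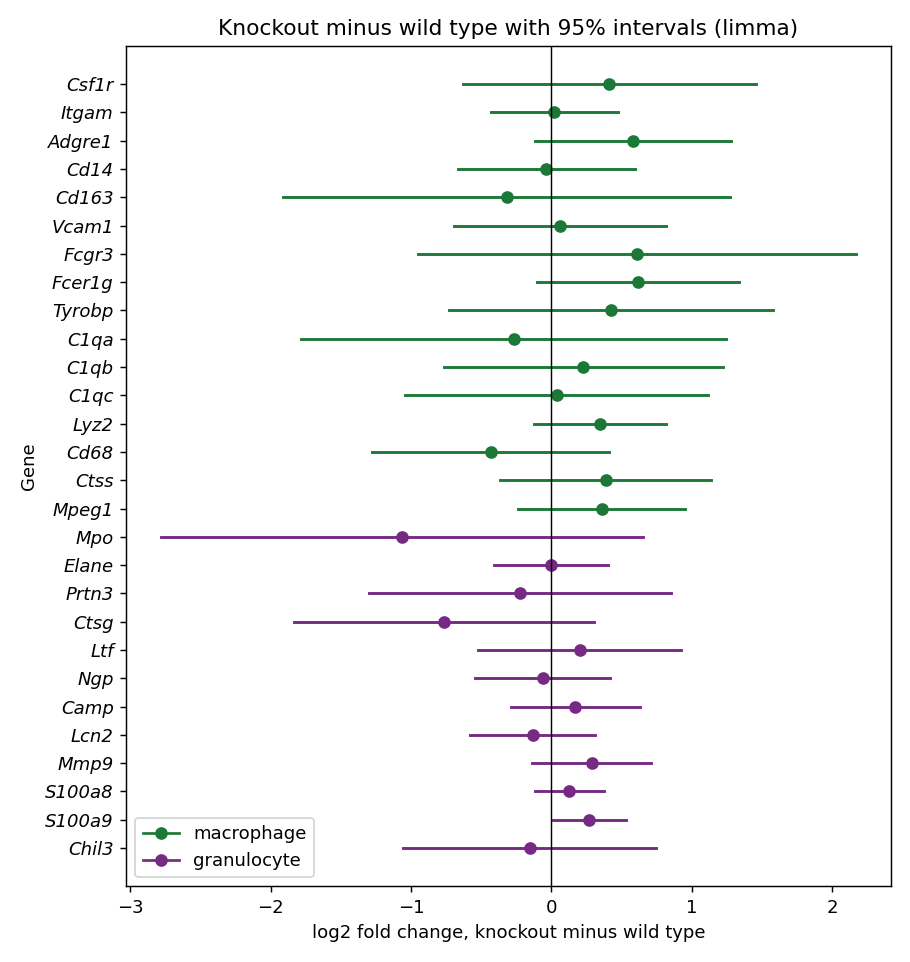
Log2 fold change, knockout minus wild type, of the 28 tested macrophage (green) and granulocyte (purple) genes; lines are 95% intervals from limma with 3 arrays per group. Every interval except that of S100a9 (0.010 to 0.53) includes 0, and those of Mpo, Cd163 and Fcgr3 are among the widest.

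The direction of the macrophage genes rested on single arrays. Without wild-type replicate 3 their median log2 fold change was -0.16, with 6 of 16 higher in knockout, and without knockout replicate 1 it was -0.08, with 7 of 16. With the close wild-type pair averaged it was 0.37, with 15 of 16 higher, and with array weights 0.05, with 9 of 16. The median of the granulocyte genes stayed between -0.10 and 0.15 under every alternative run.

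**Figure D4:**
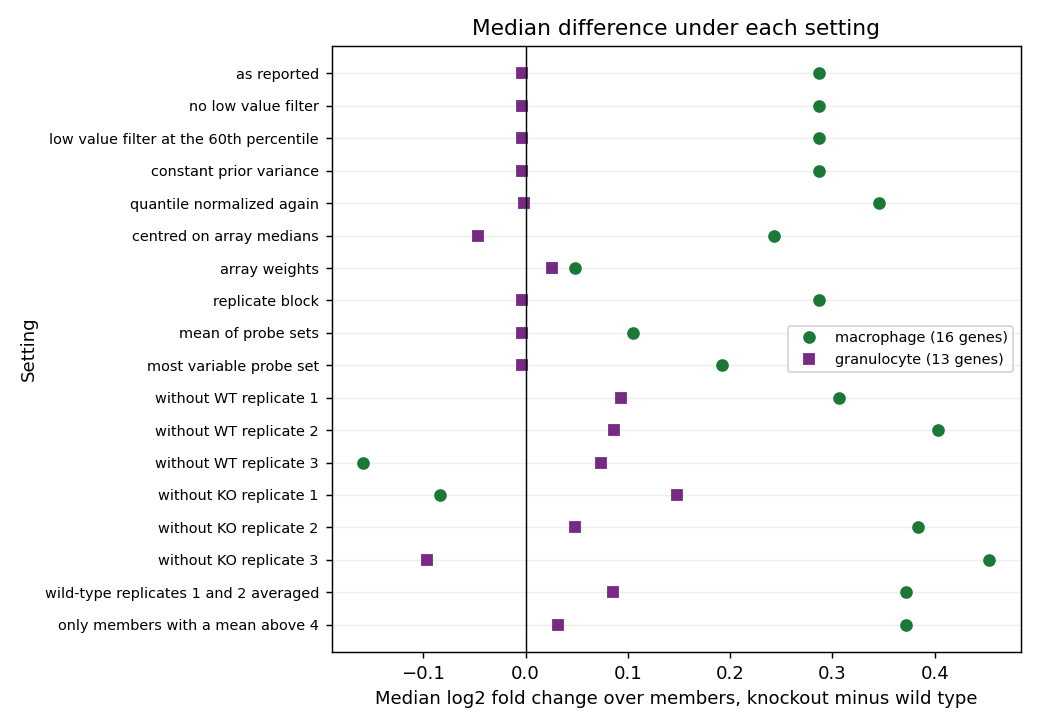
Median log2 fold change, knockout minus wild type, over 16 macrophage genes (circles) and 13 granulocyte genes (squares) as reported and under each alternative; the last row keeps only the 12 and 8 genes with a mean above 4. The macrophage median turns from 0.29 to -0.16 without wild-type replicate 3 and to -0.08 without knockout replicate 1.

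A wider list of macrophage and monocyte genes also varied by array. Of its 37 genes 35 were measured, 26 had a higher and 9 a lower mean in knockout, the median was 0.12, and 0 of the 32 tested had an adjusted p under 0.05. Knockout array 1 was highest for 16 of the 35 and wild-type array 3 lowest for 15. The smallest p belonged to Cebpb, a transcription factor induced in activated myeloid cells, at 6.93, 7.35 and 6.80 in wild type and 7.49, 8.21 and 8.01 in knockout (log2 fold change 0.88, standard error 0.248, adjusted p = 0.629 by limma). Clec7a, the receptor for fungal glucans, Cd5l, a secreted protein of tissue macrophages, and Ctsd, cathepsin D, followed with 0.79, 0.48 and -0.30. The groups overlapped for Ctsd and not for the other 3. Of the 35 measured genes, these 3 had all knockout values above all wild-type values, and 1 untested gene had them all below. Over all genes tested, 13.8% did not overlap.

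Of 24 further granulocyte genes 20 were measured, 15 with a higher and 4 with a lower mean in knockout, a median of 0.18, and 0 of 17 past the threshold. The mean of this list was 3.33, 3.46 and 3.25 on the wild-type arrays and 3.55, 3.53 and 3.495 on the knockout arrays. Wild-type array 3 was the lowest, as for both member lists, while the knockout means lay close together. Only 4 of the 20 genes averaged above 4. Wild-type array 3 was lowest for 9 of the 20 and knockout array 1 highest for 5. Padi4, which citrullinates histones in neutrophils, read 1.92 to 2.10 in wild type and 2.39 to 2.88 in knockout, and Hdc, which makes histamine, read 1.89 to 2.01 and 2.21 to 2.74. Fpr2, a receptor for formylated peptides, read 2.51 to 2.87 and 3.15 to 3.77. These were the 3 of the 20 measured genes whose groups did not overlap, where 13.8% of all genes tested did not. They lie near the bottom of the scale, and their adjusted p by limma was 0.629 to 0.634. Cebpd, which overlapped, had a log2 fold change of 0.43. Csf3r, the receptor for the granulocyte growth factor, read 1.44 to 1.85, below the filter, so that S100a8, S100a9, Camp and Ngp were measured at clear signal while this receptor was not.

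Of 7 sets of markers of other cell types, 3 had the highest and the lowest mean on the same arrays as the macrophage genes, knockout array 1 and wild-type array 3. These were natural killer cells, at 4.11 and 3.46, dendritic cells, at 2.73 and 2.27, and eosinophils, basophils and mast cells, at 2.24 and 2.04. Only 1 of the 7 measured natural killer markers, Gzma, averaged above 4, and 2 were below the filter. Gzma read 11.47, 11.30 and 12.47 in wild type and 12.96, 12.46 and 12.94 in knockout, so it was not lowest on wild-type array 3. The mean of 7 B cell markers was 3.56 to 3.80 in wild type and 4.31, 4.59 and 3.38 on the knockout arrays, with 6 of 7 higher in knockout and Blnk at 1.07, Cd79b at 0.87, Ms4a1 at 0.60 and Cd79a at 0.14. The mean of 5 platelet markers was 3.44, 3.56 and 4.42, then 3.40, 4.96 and 3.26, with Ppbp, a platelet chemokine, at 5.84 on wild-type array 3 and 6.48 on knockout array 2, against 2.71 to 3.85 elsewhere. Natural killer markers gave 3.67, 3.57 and 3.46, then 4.11, 3.73 and 3.65, erythroid markers 7.06, 6.95 and 7.01, then 7.03, 7.45 and 6.54, and T lineage markers 10.30, 10.15 and 9.66, then 10.20, 10.02 and 9.41. The T lineage set, like the macrophage genes, was lower on wild-type array 3 and knockout array 3 than on the other arrays of its genotype. Dendritic markers read 2.27 to 2.73 on average, with 4 of 7 below the filter, and markers of eosinophils, basophils and mast cells 2.04 to 2.24, with 5 of 8 below it. No gene of these lists passed the threshold. What part these cells have in the macrophage and granulocyte values was not tested.

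**Figure D5:**
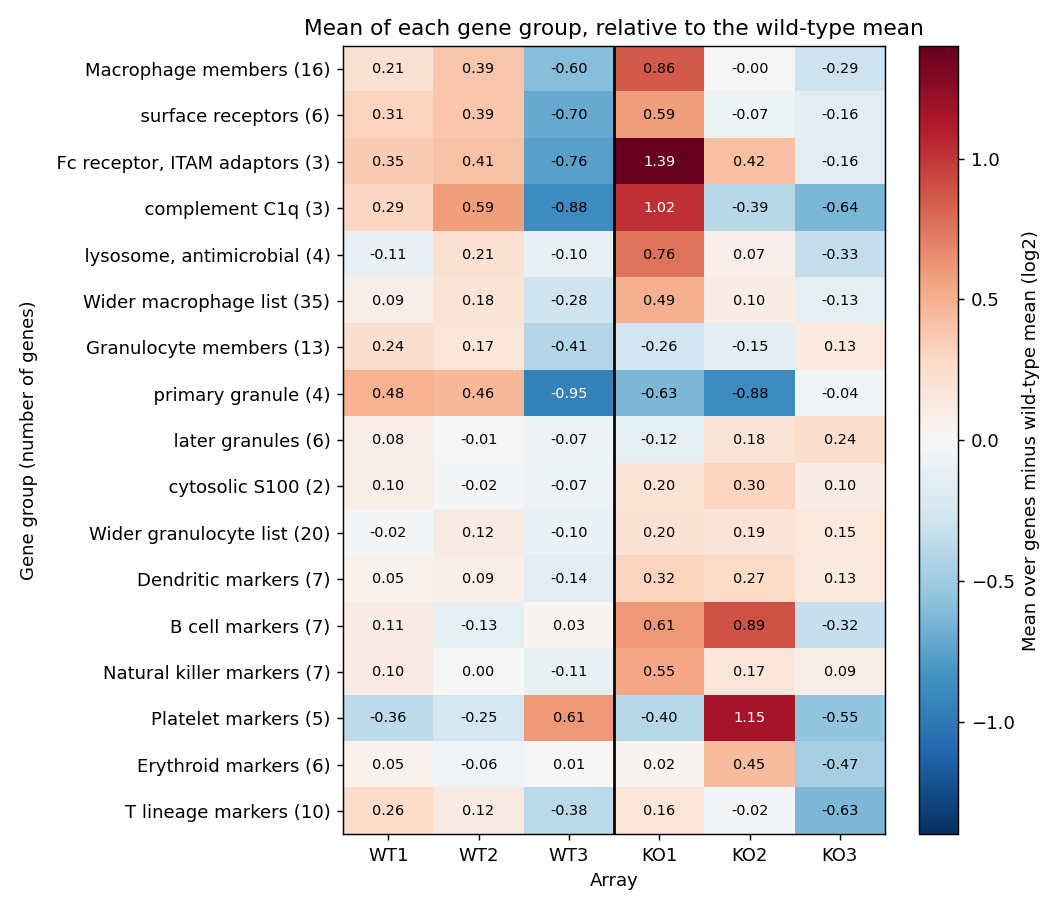
Mean log2 signal of each gene group on each array, minus the mean of the 3 wild-type arrays; the number of genes is in brackets and the vertical line separates the genotypes. Macrophage members read 0.86 on knockout array 1 and -0.60 on wild-type array 3, primary granule genes 0.48, 0.46 and -0.95 on the wild-type arrays, and platelet markers 1.15 on knockout array 2.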

How the data were processed

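Leukemia RNA for the 6 arrays was amplified from small inputs and hybridised to 1-colour arrays. The deposited values are log2 signals made by the authors with GCRMA, per the submitters' processing notes, which name no other tool, with version and settings not given in the sources used here. The base of the logarithm was inferred from the range of the values (array medians 2.26 to 2.36). Of 45101 probe sets, 34958 had 1 gene symbol in the platform annotation, 932 several and 9211 none; symbols were updated by gene identifier to the GRCm38.p6 RefSeq table. Each gene took its probe set with the highest mean, and testing was limited to genes averaging over 2.04, the 40th percentile across probe sets. The test was limma (version 3.58.1, R 4.3.3) with a prior variance that follows signal intensity, two-sided, Benjamini-Hochberg adjusted over all genes tested, at 0.05; it was tested on simulated data. Printed standard errors are moderated. The members and lists were chosen with earlier results of these data known, so no list has a p-value. Any member could be named; from each further list, the genes past the threshold, or otherwise up to 4 with the smallest p, could be named, and Lyz1, Csf3r, Cd3d and Cd3g were named for context after their values were seen. Alternatives were the filter, prior variance, normalization, array weights, replicate block, choice of probe set, each array left out, the close wild-type pair averaged, and a threshold of 0.1. No pseudocount applies to values deposited as logarithms.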

Additional observations from a re-analysis of the deposited data

How the results depend on the processing

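No member passed the threshold under any of the 16 alternatives, and adjusted p ranged from 0.0770 to 1. Over all genes the count past the threshold was 0, also at an adjusted p of 0.1. It was 1 with array weights and 0 to 54 with single arrays left out. The count of 54 came without wild-type replicate 3, where the wild-type group was only the close pair. Deviations of same-numbered arrays from their group means correlated at -0.04, -0.05 and -0.05, so no pairing by replicate number was seen across genes. A pairing that touches few genes would not show in these correlations. With the replicate block 0 genes passed, while the macrophage median stayed at 0.29. Of the 464 alternative values of the members 423 kept their direction and 41 reversed, and 14 of 29 members never reversed. With single arrays left out, the macrophage median ranged from -0.16 to 0.45 with 6 to 14 genes higher in knockout. The members that reversed then ranged from -0.12 to 0.77 (Csf1r), -0.19 to 0.14 (Itgam), -0.24 to 0.19 (Cd14), -1.18 to 0.22 (Cd163), -0.25 to 0.31 (Vcam1), -0.16 to 1.06 (Fcgr3), -0.13 to 0.99 (Tyrobp), -0.97 to 0.23 (C1qa), -0.17 to 0.57 (C1qb), -0.40 to 0.29 (C1qc), -0.11 to 0.13 (Elane), -0.71 to 0.093 (Prtn3), -0.21 to 0.15 (Ngp), -0.010 to 0.30 (Camp) and -0.63 to 0.09 (Chil3). Reversals under other settings were Itgam at -0.0097 when quantile normalized again, -0.023 when centred on array medians and -0.13 with array weights; C1qc at -0.0067 when centred and -0.21 with array weights; Vcam1 at -0.16 with array weights, -0.054 with the mean of probe sets and -0.33 with the most variable probe set; C1qb at -0.45 with the most variable probe set; and Elane at 0.025 with array weights. With the close wild-type pair averaged, Cd14 was 0.065, Cd163 0.11, C1qa 0.0042, Prtn3 0.018 and Chil3 0.085. Counts chosen after seeing the data, of macrophage genes highest on knockout array 1 (13 to 14) and lowest on wild-type array 3 (7 to 10), were recomputed under 5 alternatives; for granulocyte genes the highest count was 1 in place of 0 when quantile normalized again. The causes were not tested. Signals near 2 limit what Itgam, Cd14, Elane and Mmp8 can show, and Ctsg on wild-type array 3 and the knockout arrays.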
